A study of Mus musculus with 64 samples.

Results

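The genes described here encode 7 subunits of the GABA-A receptor, namely the alpha subunits Gabra2, Gabra3, Gabra4 and Gabra5, the beta subunits Gabrb1 and Gabrb2, and the gamma subunit Gabrg1. They were chosen by name, as the rows of the count table whose gene identifier maps to these symbols. All 7 were found among the 55401 genes of the table, and all 7 passed the filter on low counts, which kept 18971 genes.

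GABA-A receptors are chloride channels that open when GABA, the main inhibitory transmitter of the brain, binds to them. Each receptor is a ring of subunits, most often alpha and beta subunits with a gamma or delta subunit, and the alpha subunit shapes where the receptor sits and which drugs act on it. Receptors with alpha2 or alpha3 are mainly synaptic, whereas alpha4 and alpha5 are known mainly from receptors outside the synapse that carry tonic inhibition. The beta subunits form the GABA binding site together with an alpha subunit. Alpha4 is a prominent subunit of thalamic relay neurons, and gamma1 has a restricted distribution that includes the hypothalamus, the amygdala and glial cells.

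Messenger RNA was sequenced from the prefrontal cortex (PFC, labelled frontal cortex) and the whole hypothalamus of 32 male C57BL/6J mice, which were 10 weeks old at injection, fed chow and housed in groups. Each mouse received 1 intraperitoneal injection of 3 mg/kg psilocybin, a serotonergic psychedelic, or of isotonic saline as vehicle, and tissue was taken 3 h or 4 weeks later, which gave 8 groups of 8 libraries. Both regions came from the same mouse. The comparisons ask whether psilocybin altered receptor subunit mRNA in either region at either time, how the regions differ, and whether the saline groups of the harvests differ.

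Of 64 libraries, 62 had at least 1000000 counted reads and were used, with 8061033 to 70361839 counted reads (median 18287978.5). Those left out held 211111 (hypothalamus, saline, 3 h, replicate 2) and 200066 counted reads (PFC, psilocybin, 4 weeks, replicate 3), so these groups have 7 libraries. The labelled regions were checked against markers given in CPM, a gene's count per 1000000 counted reads of a library after TMM scaling of its total. The summed level of 5 cortical markers was 1280 to 1870 CPM in PFC and 20.9 to 117 CPM in the hypothalamus, and that of 7 hypothalamic markers was 0.391 to 12.8 CPM in PFC and 306 to 2550 CPM in the hypothalamus. Psilocybin replicate 5 of the hypothalamus at 4 weeks stood apart from its group for several of the 7 genes and held the 2550 CPM, and psilocybin replicate 7 of the PFC at 3 h had the lowest level of its group for all 7, so results that rest on them are given with and without them. Within a region each library was another mouse, so p-values measure the spread between mice, and the 7 genes had from 82 to 14395 counted reads in a library.

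All positions below are in the mouse build GRCm38. The genes Gabrg1, Gabra2, Gabra4 and Gabrb1 form a cluster on chromosome 5. Gabrg1 (chr5:70751047-70842617, minus strand) and Gabra2 (chr5:70957597-71095849, minus strand) are separated by 114979 bases and read in the same direction. Gabra4 (chr5:71569749-71657890, minus strand) and Gabrb1 (chr5:71658113-72149037, plus strand) lie head to head, with 222 bases between the outer ends of their annotated first exons. Gabra5 lies on chromosome 7 (chr7:57407672-57510059, minus strand), Gabrb2 on chromosome 11 (chr11:42419757-42629028, plus strand) and Gabra3 on the X chromosome (chrX:72432681-72656848, minus strand). Of the 2974 annotated exon bases of Gabra5, 148 are shared with exons of a gene on the opposite strand, and 46 of the 13838 exon bases of Gabrb1 are, so reads at those bases may belong to either gene if strand was not used in counting. The other 5 genes share no exon base with a gene on the opposite strand.

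The 250 bases before the RefSeq start of Gabrg1 and Gabra2 are shown 5′ to 3′ because Gabrg1 had the largest difference between regions of the 7 genes and its neighbour Gabra2, read in the same direction, was not called between them in the main edgeR fit. Capitals mark matches to CCAAT or GGGCGG on either strand, and the motif TATAAA was searched as well and has no match in either window. The windows are minus-strand sequence at chr5:70842618-70842867 and chr5:71095850-71096099 and overlap no annotated exon.
Gabrg1: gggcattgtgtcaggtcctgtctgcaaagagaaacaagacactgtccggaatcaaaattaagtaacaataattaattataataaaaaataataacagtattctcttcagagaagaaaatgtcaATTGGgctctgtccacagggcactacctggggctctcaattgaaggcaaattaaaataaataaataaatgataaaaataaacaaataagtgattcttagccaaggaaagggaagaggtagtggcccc
Gabra2: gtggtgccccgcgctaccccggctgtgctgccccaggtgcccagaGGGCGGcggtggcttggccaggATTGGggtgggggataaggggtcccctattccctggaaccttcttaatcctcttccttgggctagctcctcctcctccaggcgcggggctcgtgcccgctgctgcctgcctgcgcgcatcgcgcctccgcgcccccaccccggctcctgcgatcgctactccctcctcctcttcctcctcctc
The Gabrg1 window holds 1 CG dinucleotide and 35.6% G and C, whereas the Gabra2 window holds 18 and 70.0%, against medians of 6 and 52.0% over the first windows of 27025 genes. CCAAT on either strand is in 34.5% of those windows, GGGCGG in 32.9% and TATAAA in 13.0%. These matches describe the sequence only and were not related to a measured binding or mark.

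Levels of different genes were compared per kilobase of exon, counted over all annotated exons of a gene and not over the transcripts present in the tissue. By this measure Gabra3 was the most abundant of the 7 genes in both regions. Without division by length Gabra3 (mean 236 CPM) stayed first in PFC, whereas in the hypothalamus Gabrb1 (239 CPM) lay above Gabra3 (159 CPM). In PFC the mean was 60.2 CPM per kb ± 6.27 (SD, n = 31 libraries) for Gabra3, and it exceeded the next gene, Gabra4, in 31 of 31 libraries. Gabra4 (23.7 ± 4.51) and Gabrb2 (23.3 ± 4.48) were not separated, as Gabra4 was the higher of the pair in 17 of 31 libraries. Gabra5 followed at 19.6 ± 3.26, then Gabrb1 at 12.5 ± 1.85, Gabra2 at 9.58 ± 1.78 and Gabrg1 at 4.53 ± 1.13, each above the next gene in 31 of 31 libraries.

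The hypothalamus had another order. Gabra3 again came first with 40.4 CPM per kb ± 3.88 (SD, n = 31 libraries), followed by Gabrb2 at 19.0 ± 4.45, Gabrb1 at 17.3 ± 2.44, Gabra5 at 15.6 ± 1.87 and Gabra4 at 15.1 ± 3.9. Gabrg1, the least abundant of the 7 in PFC, reached 13.0 ± 1.57 and lay above Gabra2 (7.78 ± 1.04) in 31 of 31 libraries. Gabra5 and Gabra4 were not separated (Gabra5 above in 17 of 31), and Gabrb2 above Gabrb1 and Gabra4 above Gabrg1 each held in 22 of 31 libraries. Without psilocybin replicate 5 at 4 weeks the order was the same, and the SD of Gabrb2 was 2.88 in place of 4.45.

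**Figure D1:**
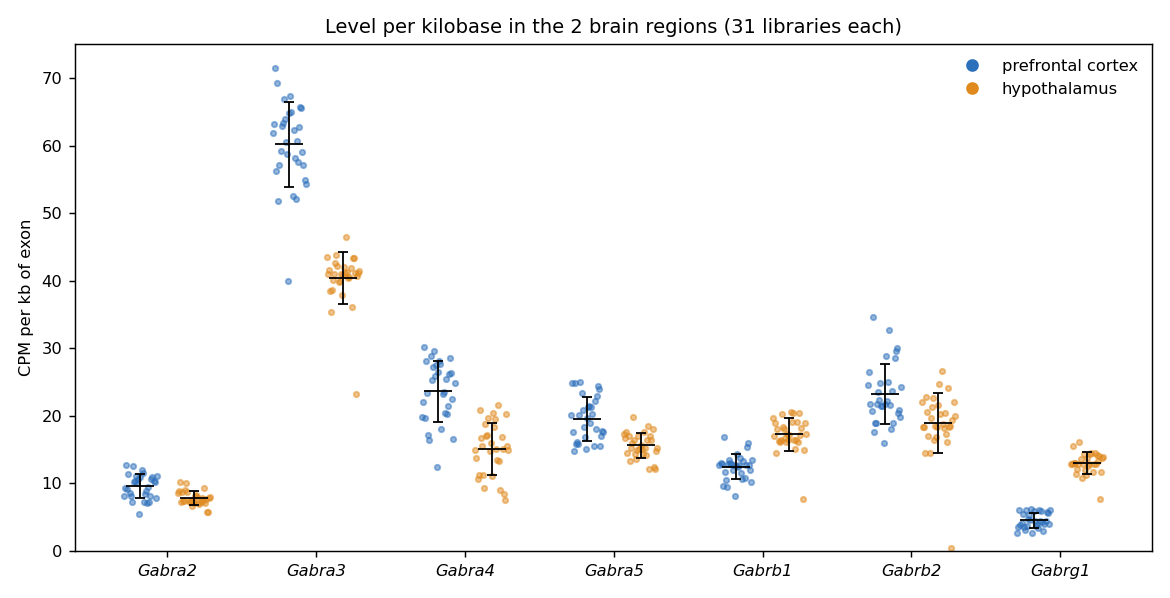
Level of each gene in CPM per kilobase of exon (y axis) in the 31 PFC and 31 hypothalamus libraries. Points are libraries, bars are means with SD, and Gabrg1 is the gene whose 2 clouds are farthest apart relative to their spread, with means of 4.53 in PFC and 13.0 in the hypothalamus.

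As a share of the summed per-kilobase level of the 7 genes, Gabrg1 made up 2.97% ± 0.717 (SD, n = 31) in PFC and 10.2% ± 0.975 in the hypothalamus. Gabrb1 made up 8.12% ± 0.498 and 13.4% ± 0.79, and its PFC shares (7.17% to 9.18%) did not overlap its hypothalamic shares (11.9% to 14.7%). Gabra3 made up 39.4% ± 2.09 in PFC and 31.6% ± 1.72 in the hypothalamus. The shares of Gabra2 (6.23% and 6.12%), Gabra5 (12.8% and 12.3%) and Gabrb2 (15.1% and 14.5%) were close to each other in the 2 regions.

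The comparison of regions in saline mice gave the clearest differences. Of the 7 genes, 5 passed the test at 3 h and 5 at 4 weeks, where 54.9% and 55.2% of the 18971 genes tested passed (quasi-likelihood test of edgeR, Benjamini-Hochberg adjusted p under 0.05). Gabra3, Gabra4 and Gabra5 were higher in PFC at both times, which was the case for 29.1% of genes at 3 h and 29.5% at 4 weeks. Gabrg1 and Gabrb1 were lower in PFC at both times, against 25.8% and 25.7% of genes. Gabra2 and Gabrb2 did not pass at either time. DESeq2 called 4 and 5 of the 7, where it called 55.9% and 56.4% of all genes, and limma with voom weights 5 and 6, where it called 62.0% and 67.1%. Scaled to total counted reads with no TMM factor, which moved the median log2 fold change of all genes from 0.03 to -0.14 at 3 h and from 0.04 to -0.14 at 4 weeks, 3921 genes were higher and 7058 lower in PFC at 3 h, against 5515 and 4901 with TMM. Under that scaling Gabra3, Gabrb1 and Gabrg1 kept their calls at both times, Gabra4 kept its call at 3 h alone and Gabra5 at neither time, and the 3 h value of Gabra2 was -0.0259. In bulk tissue, fewer cells of a type and less RNA per cell cannot be told apart, and since each region was extracted in pools of its own, region and extraction pool cannot be told apart either.

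Cell-type markers also differed between the regions. Of Snap25, Syt1, Rbfox3 and Stmn2, 4 markers of neurons, 3 were higher and 0 lower in PFC at each time (edgeR), with a median log2 fold change of 1.11 at 3 h and 1.18 at 4 weeks, larger than that of any of the 3 subunit genes higher in PFC. Their summed level was 4190 to 7300 CPM (median 5810) in the PFC libraries and 2290 to 3040 CPM (median 2710) in the hypothalamic libraries. Of Cx3cr1, P2ry12, Csf1r and Tmem119, markers of microglia, 4 of 4 were higher in PFC at both times (median 1.02 and 0.77), and of Gad1, Gad2 and Slc32a1, markers of GABAergic neurons, 2 of 3 were lower (-1.42 and -1.02). The summed level of the oligodendrocyte markers Mbp, Mog and Mobp was 1290 to 4320 CPM (median 2480) in PFC and 3380 to 6820 CPM (median 4760) in the hypothalamus. The part of the cell types in the regional differences was not tested.

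Gabrg1 had the largest regional difference of the 7. Saline mice had a lowest, median and highest Gabrg1 level of 20.8, 29.3 and 47.9 CPM in PFC at 3 h, and of 90.2, 101 and 122 CPM in the hypothalamus. At 4 weeks these values were 26.5, 34.5 and 47.2 CPM in PFC, and 91.8, 105 and 114 CPM in the hypothalamus. Each hypothalamic saline library lay above each PFC saline library, and over all groups the 31 PFC libraries (20.8 to 49.1 CPM) did not overlap the 31 hypothalamic libraries (60.4 to 127 CPM). The level was 3.21-fold lower in PFC at 3 h (log2 fold change -1.68, SE 0.14, edgeR adjusted p = 1.38e-15) and 3.00-fold lower at 4 weeks (-1.58, SE 0.14, adjusted p = 4.51e-15). Of the genes tested, 10.7% had a larger absolute log2 fold change between regions at 3 h and 11.0% at 4 weeks. In the 30 mice with both regions kept, Gabrg1 was lower in PFC in 30 of 30, which already follows from ranges that do not overlap.

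Gabrb1, the beta1 subunit, was the other gene with a lower level in PFC. At 3 h, saline mice had 130, 169 and 233 CPM (lowest, median, highest) in PFC and 201, 236 and 272 CPM in the hypothalamus, and 1 PFC library, replicate 5 with 233 CPM, reached into the hypothalamic range. At 4 weeks the ranges did not overlap, with 147, 174 and 198 CPM in PFC and 209, 251 and 285 CPM in the hypothalamus. The log2 fold change of PFC over hypothalamus was -0.52 (SE 0.11, edgeR adjusted p = 3.48e-05) at 3 h and -0.54 (SE 0.10, adjusted p = 1.31e-05) at 4 weeks. Gabrb1 was lower in PFC in 28 of 30 mice.

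Gabra3 had the clearest excess in PFC. Saline mice had 203, 237 and 281 CPM in PFC at 3 h against 139, 157 and 171 CPM in the hypothalamus, and 205, 233 and 264 CPM against 158, 162 and 182 CPM at 4 weeks. The ranges did not overlap at either time. The level was 1.53-fold higher in PFC at 3 h (log2 fold change 0.61, SE 0.08, edgeR adjusted p = 8.54e-10) and 1.42-fold higher at 4 weeks (0.51, SE 0.08, adjusted p = 4.54e-08). It was higher in PFC in 29 of 30 mice.

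Gabra4 differed to a similar extent but with a wider spread. Saline mice had 100, 128 and 184 CPM (lowest, median, highest) in PFC at 3 h against 64.9, 91.0 and 127 CPM in the hypothalamus, and 110, 143 and 172 CPM against 67.8, 102 and 131 CPM at 4 weeks, so the ranges overlapped. The log2 fold change was 0.59 (SE 0.18, edgeR adjusted p = 0.00328) at 3 h and 0.49 (SE 0.17, adjusted p = 0.0116) at 4 weeks, and Gabra4 was higher in PFC in 28 of 30 mice. Gabra4 and its head-to-head neighbour Gabrb1 therefore differed between regions in opposite directions. Scaled to total counted reads with no TMM factor, the Gabra4 difference at 4 weeks was 0.30 (adjusted p = 0.111).

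The hypothalamic level of Gabra4 moved with markers of the neighbouring thalamus. The summed level of Tcf7l2, Prkcd, Lef1 and Rora, 4 markers of thalamic neurons, ranged from 165 to 555 CPM (median 404) over the 31 hypothalamic libraries and from 79.3 to 129 CPM (median 102) over the PFC libraries. After removal of group and extraction pool, Gabra4 had a Pearson correlation of 0.85 with the mean of these markers across the 31 hypothalamic libraries (Spearman 0.89, 0.82 without the 2 farthest libraries and 0.93 without psilocybin replicate 5 at 4 weeks), which share their extraction pools, and -0.71 with the mean of the hypothalamic markers (Spearman -0.73). For the other 6 genes the correlation with the thalamic markers in the hypothalamus lay between -0.31 (Gabrg1) and 0.11 (Gabrb2), and between -0.41 and 0.28 without that replicate. The part that thalamic tissue in the dissected piece plays in the level of Gabra4 was not tested.

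**Figure D2:**
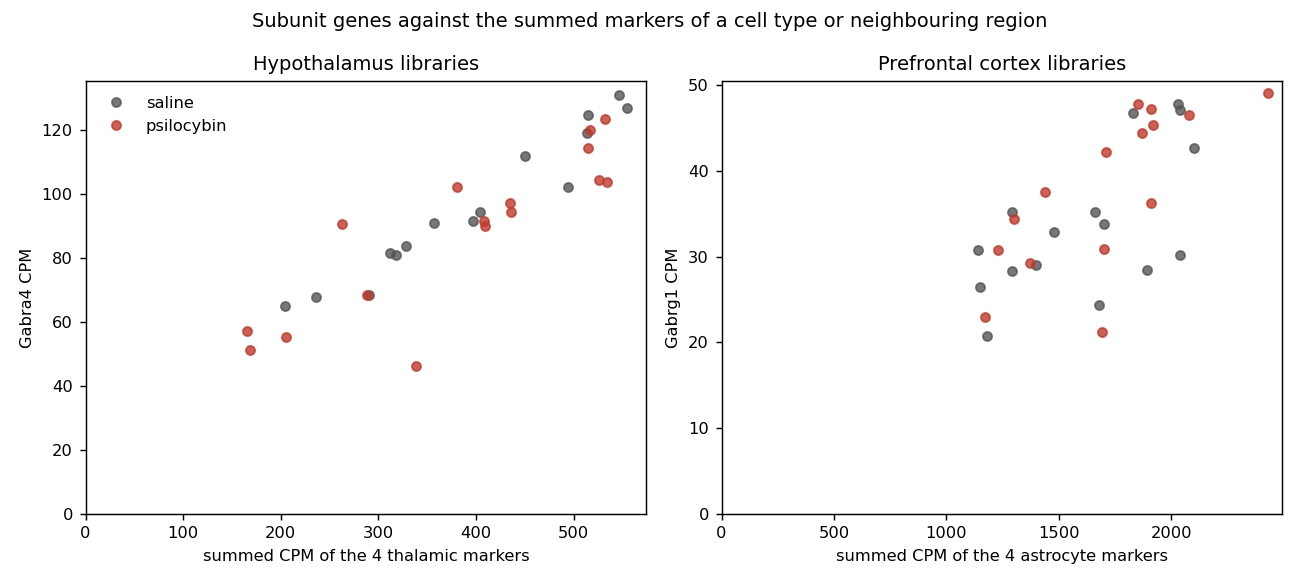
Left, Gabra4 CPM against the summed CPM of 4 thalamic markers in 31 hypothalamus libraries, and right, Gabrg1 CPM against the summed CPM of 4 astrocyte markers in 31 PFC libraries. Points are libraries, coloured by treatment, and Gabra4 is higher in libraries with more thalamic marker RNA, with 1 psilocybin library, at 46.1 CPM and a marker level of 338 CPM, below the others.

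Gabra5 showed a smaller excess in PFC. Saline mice had 43.9, 50.2 and 74.0 CPM in PFC at 3 h against 39.8, 49.8 and 52.2 CPM in the hypothalamus, and 46.2, 61.7 and 66.1 CPM against 42.4, 46.1 and 55.2 CPM at 4 weeks, with overlapping ranges at both times. The log2 fold change was 0.22 (SE 0.10, edgeR adjusted p = 0.0477) at 3 h and 0.32 (SE 0.09, adjusted p = 0.00325) at 4 weeks. The call at 3 h was kept in 4 of 14 alternatives and lost with the mouse as a block (0.15, adjusted p = 0.162) and with the cage as a block (0.19, adjusted p = 0.085). The call at 4 weeks was kept in 13 of 14.

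In the main edgeR fit, Gabra2 and Gabrb2 did not pass in the region comparison. The log2 fold change of Gabra2 was 0.15 (95% interval -0.07 to 0.37, edgeR adjusted p = 0.257) at 3 h and 0.24 (0.02 to 0.45, adjusted p = 0.0586) at 4 weeks, and PFC was higher in 22 of 30 mice. For Gabrb2 it was 0.25 (-0.26 to 0.76, adjusted p = 0.416) at 3 h and 0.18 (-0.30 to 0.67, adjusted p = 0.542) at 4 weeks, and PFC was higher in 24 of 30 mice. The wide interval of Gabrb2 moved with 1 library, since the SE at 3 h was 0.25 over 62 libraries and 0.11 without psilocybin replicate 5 of the hypothalamus at 4 weeks. Without that library the 3 h difference passed (0.26, edgeR adjusted p = 0.0394), as 59.7% of all genes did. With an edgeR offset for GC content and length, Gabra2 passed at both times (0.29, adjusted p = 0.00295, and 0.22, adjusted p = 0.017), where 59.5% and 59.6% of all genes did. By limma with voom weights and the mouse as a block it passed at 4 weeks (0.26, adjusted p = 0.00306), where 67.1% of all genes did. With only the compared groups in the edgeR fit it also passed at 4 weeks (0.23, adjusted p = 0.0399). Of 14 alternatives, Gabra2 passed in 2 at 3 h and in 4 at 4 weeks.

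**Figure D3:**
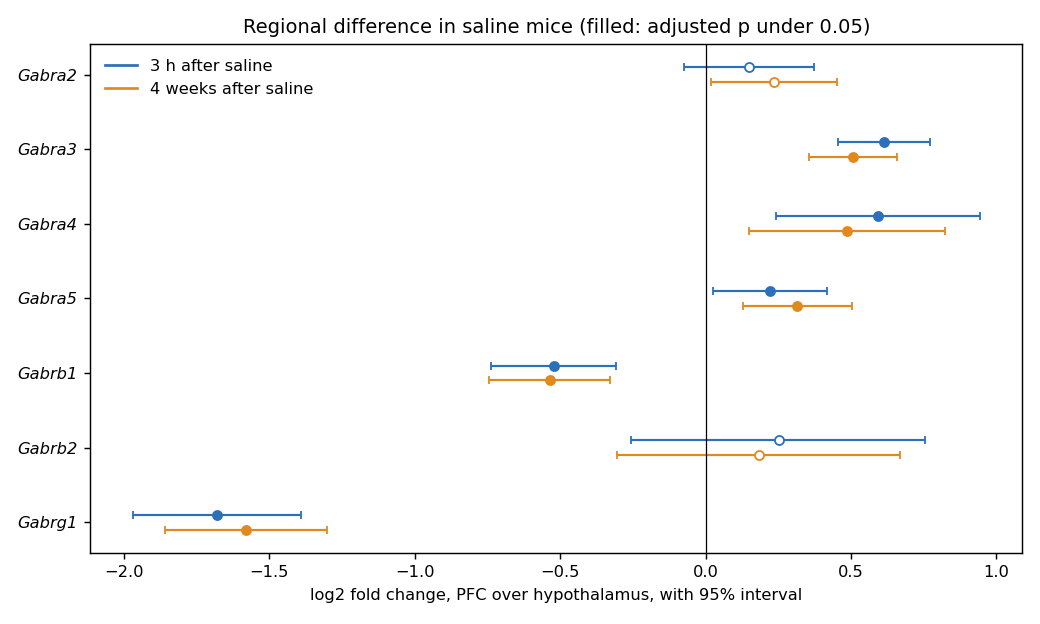
Log2 fold change of PFC over hypothalamus (x axis) for each gene in saline mice at 3 h and 4 weeks, with 95% intervals. Filled points have an adjusted p under 0.05, and Gabrg1 and Gabrb1 are the genes left of 0 at both times.

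Psilocybin was compared with saline in each region at each time. None of the 7 genes passed the test in any of the 4 comparisons (edgeR, adjusted p under 0.05), and for each gene the psilocybin and saline ranges overlapped in all 4. Overlap of ranges, here and between regions, was read for the 7 genes only, with no share over all genes to set it against. Over the 18971 genes tested, 0.0105% passed in PFC at 3 h (0.0318% without psilocybin replicate 5 of the hypothalamus at 4 weeks), 0.0% in PFC at 4 weeks, 0.0% in the hypothalamus at 3 h and 0.0% in the hypothalamus at 4 weeks. At an unadjusted p under 0.05 there was 1 of the 7 genes in PFC at 3 h, where 7.23% of all genes tested had such a p, and 0 of 7 in PFC at 4 weeks (2.40% of all genes), in the hypothalamus at 3 h (1.78%) and at 4 weeks (9.61%). Without psilocybin replicate 5 of the hypothalamus at 4 weeks the counts of the 7 were the same, and the shares over all genes were 10.3%, 3.13%, 2.45% and, in the comparison that holds this library, 1.91%. DESeq2 gave the same counts of the 7 and called 0 of 7 in each comparison, where over all genes 8.09%, 2.64%, 1.89% and 10.5% had such a p and 9, 19, 0 and 13 genes were called. Fitted to the same 62 libraries, limma with voom quality weights and the mouse as a block called 1 of the 7, Gabrg1 in PFC at 3 h, where it called 6.49% of all genes, and 0 in the other 3 comparisons. The study used a model of this kind but left out a further library that was kept here. By limma 3 of 7 had an unadjusted p under 0.05 in PFC at 3 h, where 21.5% of all genes did, 1 of 7 in PFC at 4 weeks (4.94% of all genes) and 0 of 7 in the hypothalamus at 3 h (5.71%) and at 4 weeks (4.23%).

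**Figure D4:**
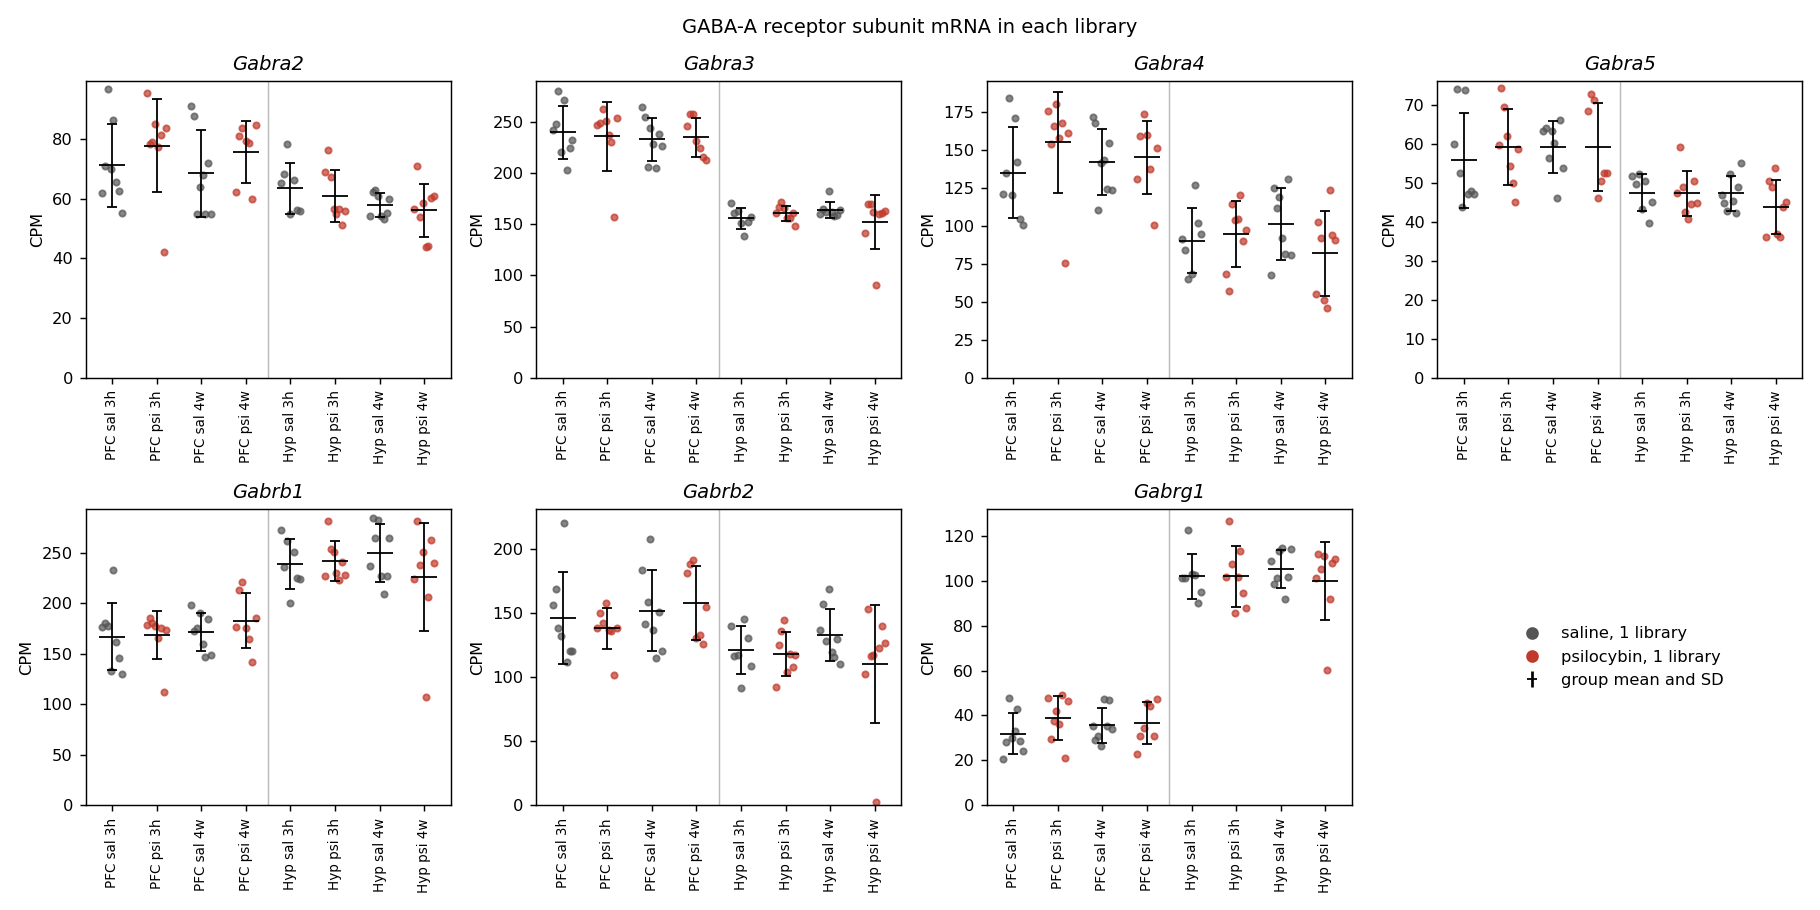
CPM of each gene (y axis, 1 panel a gene) in every library of the 8 groups, with PFC groups left and hypothalamus (Hyp) groups right of the grey line, sal for saline and psi for psilocybin. Points are libraries and bars are group means with SD, and within a region the psilocybin and saline points overlap in each panel, with 1 hypothalamic library at 3.02 CPM for Gabrb2.

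In PFC at 3 h, Gabrg1 had the largest difference of the 7 genes. The lowest, median and highest levels were 20.8, 29.3 and 47.9 CPM after saline and 21.2, 39.9 and 49.1 CPM after psilocybin, and 7 of 8 psilocybin libraries lay above the saline median. The log2 fold change was 0.28 (SE 0.14, 95% interval 0.00451 to 0.56, edgeR adjusted p = 0.687). Within extraction pool C the difference of mean log2 CPM was 0.345 and within pool D it was 0.214, each with 4 libraries a group. With 1 library left out these ran from 0.162 to 0.563 in pool C, the highest without saline replicate 3, and from 0.0709 to 0.473 in pool D, the highest without psilocybin replicate 7. With limma and voom weights the log2 fold change was 0.46 (SE 0.13, adjusted p = 0.0198), and with an edgeR offset for GC content and length it was -0.01 (adjusted p = 0.999). Over the 13 alternatives the adjusted p ranged from 0.0198 to 0.999, and with 1 library left out at a time the log2 fold change ran from 0.211 to 0.427, the highest without saline replicate 3.

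The level of Gabrg1 in PFC moved with the markers of several cell types, astrocytes and microglia most closely. Aqp4, Aldh1l1, Slc1a3 and Gja1 summed to 1180 to 2100 CPM (median 1790) in the saline and 1370 to 2430 CPM (median 1780) in the psilocybin libraries of PFC at 3 h, and their mean had a Pearson correlation of 0.72 with Gabrg1 across the 31 PFC libraries (Spearman 0.77) and of 0.55 across the 31 hypothalamic libraries (Spearman 0.44, and a Pearson correlation of 0.34 without psilocybin replicate 5 at 4 weeks). With the mean of the 4 microglial markers the correlation in PFC was 0.621 (Spearman 0.79, and 0.798 without the 2 farthest libraries). It was 0.529 with the thalamic, 0.452 with 4 oligodendrocyte, 0.394 with 5 striatal and -0.61 with 3 endothelial markers. The microglial sum was 266 to 469 CPM (median 399) after saline and 268 to 447 CPM (median 375) after psilocybin in PFC at 3 h. In that comparison no marker of these lists was called. The log2 fold change was above 0 for 5 of 5 striatal (median 0.388), 4 of 4 oligodendrocyte (0.241), 4 of 4 thalamic (0.155) and 4 of 4 astrocyte markers (0.0716). It was above 0 for 1 of 4 microglial (-0.0347) and 0 of 3 endothelial markers (-0.0785). Between regions the astrocyte sum was 1140 to 2430 CPM in PFC and 1040 to 1770 CPM in the hypothalamus, and its 4 markers went both ways. In saline mice 2 were higher and 1 lower in PFC at 3 h, and 1 and 1 at 4 weeks (edgeR). The microglial sum was 254 to 469 CPM (median 358) in PFC and 144 to 228 CPM (median 185) in the hypothalamus. The part of any cell type in the Gabrg1 values was not tested.

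The other 6 genes had smaller or less precise differences in PFC at 3 h. Gabra4 had 100, 128 and 184 CPM (lowest, median, highest) after saline and 75.2, 163 and 180 CPM after psilocybin, with a log2 fold change of 0.20 (95% interval -0.14 to 0.53, edgeR adjusted p = 0.838). For Gabra2 it was 0.13 (-0.09 to 0.34), for Gabra5 0.08 (-0.11 to 0.26), for Gabrb1 0.0079 (-0.20 to 0.22), for Gabra3 -0.03 (-0.18 to 0.12) and for Gabrb2 -0.09 (-0.58 to 0.40). Psilocybin replicate 7 was the lowest of its group for all 7 genes, and without it the values were 0.384 for Gabrg1 (edgeR adjusted p = 0.179), 0.215 for Gabra2, 0.295 for Gabra4 and 0.034 for Gabra3, which then had the opposite sign. The median over the 7 genes was 0.08 with it, against -0.0074 over all genes tested.

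In PFC at 4 weeks the fitted differences of the 7 genes were all above 0, from 0.0048 for Gabra5 to 0.17 for Gabra2 (95% interval -0.06 to 0.39), with a median of 0.04 against -0.0067 over all genes and each edgeR adjusted p at 1.0. Gabra2 had 54.8, 66.0 and 91.2 CPM after saline and 59.8, 79.3 and 84.8 CPM after psilocybin, so that the psilocybin range lay within the saline range. The sign was not stable across the alternatives for Gabra3, Gabra4, Gabra5 and Gabrg1. Within extraction pool C, 6 of the 7 differences were above 0 and within pool D 4 of the 7 were, counts that ran from 3 to 7 and from 2 to 6 with 1 library left out.

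In the hypothalamus at 3 h the 7 differences lay between -0.08 for Gabra2 (95% interval -0.30 to 0.14) and 0.08 for Gabra4 (-0.27 to 0.43), with a median of -0.0064 against -0.00081 over all genes. Gabrg1, high in this region, had 90.2, 101 and 122 CPM after saline and 85.6, 102 and 127 CPM after psilocybin, a log2 fold change of -0.0064 (-0.29 to 0.28). Gabrb1 had 201, 236 and 272 CPM after saline and 223, 236 and 281 CPM after psilocybin (0.0071, -0.21 to 0.22). Differences inside these intervals remain compatible with the data, so an absence of change was not shown.

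In the hypothalamus at 4 weeks the 7 differences were all below 0, from -0.05 for Gabra2 to -0.31 for Gabra4, with a median of -0.11 against 0.0097 over all genes. These values moved with psilocybin replicate 5, in which Gabrb2 was at 3.02 CPM against 102 to 153 CPM in the other 7 libraries of its group, Gabra3 at 90.9 CPM and Gabrb1 at 107 CPM. Without this library the differences were -0.01 for Gabra2, -0.03 for Gabra3, -0.22 for Gabra4, -0.09 for Gabra5, -0.04 for Gabrb1, -0.09 for Gabrb2 and -0.0072 for Gabrg1. The smallest adjusted p of the 7 was 0.567 with the library and 1.0 without it.

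Gabra4 had the largest of these differences with and without that library. Its lowest, median and highest levels were 67.8, 102 and 131 CPM after saline and 46.1, 91.2 and 124 CPM after psilocybin, 3 of 8 psilocybin libraries lay below the saline range, and the log2 fold change was -0.31 (95% interval -0.65 to 0.03, edgeR adjusted p = 0.567). Within extraction pool A the difference of mean log2 CPM was -0.52 and within pool B it was -0.175. Pool B holds psilocybin replicate 5, and without it the difference in that pool was 0.111, of the opposite sign, whereas pool A ran from -0.723 to -0.36 with 1 library left out. The thalamic markers, with which Gabra4 varied in this region, summed to 236 to 546 CPM (median 424) after saline and 168 to 532 CPM (median 359) after psilocybin. The part of these markers in the difference was not tested.

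**Figure D5:**
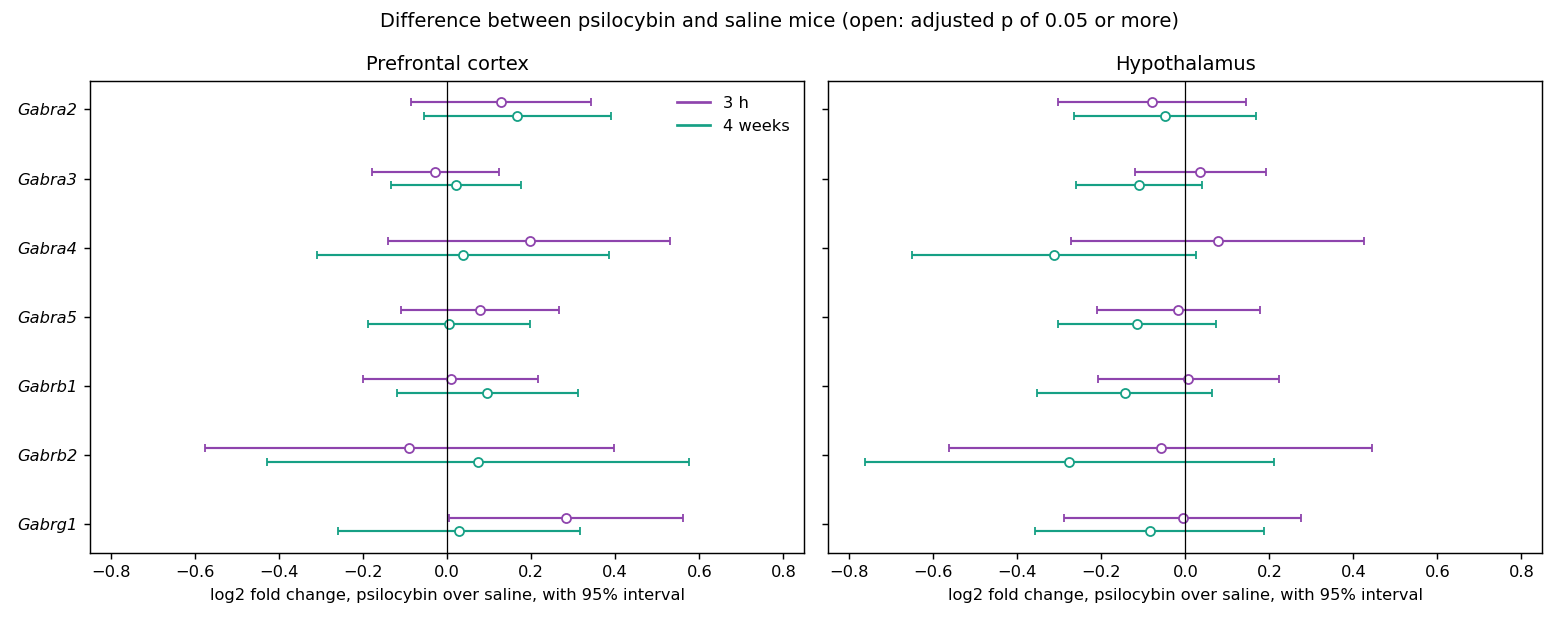
Log2 fold change of psilocybin over saline (x axis) for each gene in PFC (left) and hypothalamus (right) at 3 h and 4 weeks, with 95% intervals. All points are open, since no adjusted p was under 0.05, and the interval of Gabrg1 in PFC at 3 h starts at 0.00451.

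The response to psilocybin was also compared between regions and between times. None of the 7 genes had a response that differed between PFC and hypothalamus at 3 h or at 4 weeks, or between 4 weeks and 3 h in PFC or in the hypothalamus (edgeR, interaction contrasts, adjusted p under 0.05), and over all genes 0.0% passed in each of the 4 contrasts. By edgeR and by DESeq2, 0 of the 7 genes had an unadjusted p under 0.05 in each of the 4 contrasts, where the share over all genes ran from 2.78% to 6.69% by edgeR and from 3.24% to 7.22% by DESeq2. Without psilocybin replicate 5 of the hypothalamus at 4 weeks 0 of the 7 had such a p by edgeR, and the largest of these shares, that of the region contrast at 4 weeks, was 2.85% in place of 6.69%. By limma with voom weights 2 of 7 did in the contrast of regions at 3 h, where 14.9% of all genes did, and 1 of 7 in the contrast of times in PFC, where 8.17% did, with 0 of 7 called. The region contrast of Gabrg1 at 3 h was 0.29 (95% interval -0.11 to 0.69) and that of Gabra4 at 4 weeks was 0.35 (-0.14 to 0.83).

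In the comparison of the saline groups of the 2 harvests, none of the 7 genes passed (edgeR) in PFC, where 4.72% of all genes passed, or in the hypothalamus, where 0.685% did. Without psilocybin replicate 5 of the hypothalamus at 4 weeks none of the 7 passed either, and 8.32% and 1.19% of all genes did. In PFC the log2 fold changes of 4 weeks over 3 h ran from -0.06 for Gabra2 to 0.14 for Gabrg1 (95% interval -0.14 to 0.42), and in the hypothalamus from -0.15 for Gabra2 (-0.37 to 0.08) to 0.18 for Gabra4 (-0.17 to 0.53). In either region 0 of 7 had an unadjusted p under 0.05 by edgeR, DESeq2 or limma with voom weights, where of the 18971 genes tested 3419, 3614 and 4115 did in PFC by these tools in turn, and 1535, 1571 and 4119 in the hypothalamus. With an edgeR offset for GC content and length, Gabra2 passed in PFC (-0.24, adjusted p = 0.0466), where 11.2% of all genes passed, 564 as higher and 1553 as lower at 4 weeks, and the median log2 fold change of all genes was -0.05.

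Most pairs of the 7 genes varied in the same direction from library to library within a region. After removal of group and extraction pool, 21 of 21 pairs had a positive Pearson correlation across the 31 PFC libraries (median 0.70) and 20 of 21 across the 31 hypothalamic libraries (median 0.56). Over all pairs of genes tested, 50.1% were positive in PFC and 49.9% in the hypothalamus, with a median of 0.0 in each. These are descriptions over libraries that share depth and quality differences. Without psilocybin replicate 7 of PFC at 3 h the counts were 19 of 21 (median 0.60), and without psilocybin replicate 5 of the hypothalamus at 4 weeks they were 18 of 21 (median 0.39), with Gabra4 at -0.215 with Gabrg1, -0.156 with Gabra5 and -0.0346 with Gabra2. The closest pair in PFC was Gabra2 with Gabra4 (0.93), a pair that was at 0.0962 in the hypothalamus, and the closest in the hypothalamus was Gabra3 with Gabrb2 (0.91), which was at 0.57 without the 2 farthest libraries.

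Neuronal markers moved with several of the 7 genes in PFC. There, Gabra5 (Pearson 0.812), Gabra3 (0.749), Gabrb1 (0.697), Gabrb2 (0.632), Gabra4 (0.559) and Gabra2 (0.507) varied with the mean of the 4 neuronal markers. Gabrg1 was at 0.0713. Without psilocybin replicate 7 at 3 h, which had the lowest sum of these markers in PFC, the values of the former were 0.80, 0.791, 0.672, 0.606, 0.518 and 0.448. Without the 2 libraries farthest in the markers they were 0.648, 0.701, 0.431, 0.311, 0.481 and 0.469. In the hypothalamus the same genes in turn were at 0.0589, 0.332, 0.234, 0.29, 0.597 and 0.0412. The part of these markers in the levels was not tested.

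The genes whose library-to-library pattern was most like that of a member were named by the smaller of its correlations in PFC and in the hypothalamus, each over 31 libraries. For Gabrg1 these were Actr3 (0.862), Yme1l1 (0.859) and Hspa13 (0.85), and for Gabrb2 they included Stxbp5l (0.93) and Usp9x (0.93). Gabrb1 was followed by Csrnp3 (0.945), Myo9a (0.943) and Vps13a (0.934), Gabra4 by Kitl (0.92), Rgs7bp (0.91) and Ptpn4 (0.91), and Gabra3 by Nckap1 (0.89), Hace1 (0.88) and Pja2 (0.875). Gabra2 was followed by Tardbp (0.81), Ddx5 (0.80) and Fbxl5 (0.79). Gabra5 had looser matches, among them Kif3a (0.65) and Stx16 (0.63). Without psilocybin replicate 7 of PFC at 3 h and psilocybin replicate 5 of the hypothalamus at 4 weeks, the value of Nckap1 was 0.661, that of Hace1 0.646 and that of Actr3 0.743.

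Other genes of GABA signalling were read from fixed lists in the same fits. In the 4 comparisons of psilocybin with saline, 0 of the 8 tested of 12 other GABA-A subunits, 0 of 5 GABA-B receptor genes, 0 of 9 genes of GABA synthesis, release and uptake, 0 of 6 chloride transporters and their regulators and 0 of 18 assembly and scaffold genes passed (edgeR). In PFC at 3 h, where 7.23% of all genes had an unadjusted p under 0.05, 1 of 8, 1 of 5, 0 of 9, 1 of 6 and 1 of 18 of these genes did, among them Kctd8, an auxiliary subunit of the GABA-B receptor (log2 fold change 0.46, SE 0.16, edgeR adjusted p = 0.531), and Slc12a2, the chloride importer NKCC1 (0.27, SE 0.12, adjusted p = 0.67). In PFC at 4 weeks (2.40% of all genes) the counts were 2 of 8, 0, 1 of 9, 0 and 0, in the hypothalamus at 3 h (1.78%) they were 0, 0, 1 of 9, 0 and 0, and at 4 weeks (9.61%) 0, 0, 0, 0 and 2 of 18. Without psilocybin replicate 5 of the hypothalamus at 4 weeks, 0 of 18 remained there (1.91% of all genes), the third list had 2 of 9 in the hypothalamus at 3 h, and the fifth had 1 of 18 in PFC at 4 weeks. With all 62 libraries the gene in the hypothalamus at 3 h was Slc32a1, the vesicular GABA transporter (-0.34, SE 0.13, edgeR adjusted p = 1.0). Those in PFC at 4 weeks were Gabre (-2.20, SE 0.57, adjusted p = 0.491), listed at a mean of 0.142 CPM after psilocybin and 0.673 CPM after saline, Gabrq (-0.84, SE 0.41) and Slc32a1 (-0.28, SE 0.13).

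The same lists were read between regions in saline mice, where 29.1% of all genes passed as higher and 25.8% as lower in PFC at 3 h, and 29.5% and 25.7% at 4 weeks. Of the 8 other GABA-A subunits tested, 2 were higher and 5 lower in PFC at 3 h, and 3 higher and 4 lower at 4 weeks. The epsilon subunit Gabre was at a mean of 0.248 CPM in PFC and 33.7 CPM in the hypothalamus at 3 h, and the theta subunit Gabrq at 1.24 and 92.3 CPM. Of 9 genes of GABA synthesis, release and uptake, 1 was higher and 6 lower in PFC at 3 h, and 1 and 5 at 4 weeks. Slc6a11, the astrocytic GABA transporter, was at 194 CPM in PFC and 1030 CPM in the hypothalamus at 3 h (log2 fold change -2.41, SE 0.11, edgeR adjusted p = 3.65e-27).

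The counts of the remaining lists stand beside the same shares over all genes, 54.9% called at 3 h and 55.2% at 4 weeks. Of 5 GABA-B receptor genes, 2 were higher and 1 lower in PFC at 3 h, and 2 and 2 at 4 weeks, with the auxiliary subunit Kctd16 at 33.3 CPM in PFC and 9.23 CPM in the hypothalamus at 3 h. Of 6 chloride transporters and regulators, 2 were higher and 2 lower at each time, with Slc12a2 lower (log2 fold change -0.87, SE 0.13, edgeR adjusted p = 2.2e-08) and the chloride channel Clcn2 higher in PFC at 3 h (1.09, SE 0.09, adjusted p = 2.45e-16). Of 18 assembly and scaffold genes, 6 were higher and 6 lower at 3 h, and 8 and 6 at 4 weeks. Shisa7, an auxiliary protein of GABA-A receptors, was higher in PFC at 3 h (1.12, SE 0.13, adjusted p = 2.14e-11), and Hap1, a trafficking protein of these receptors, was at 102 CPM in PFC and 867 CPM in the hypothalamus.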

How the data were processed

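Whole-number counts per gene were used as deposited. Per the labels and the paper's methods, the authors demultiplexed reads with bcl2fastq 2.20.0, aligned the paired-end reads to GRCm38 with STAR 2.7.2b and made the gene counts with featureCounts 1.6.2 on a GENCODE annotation. The library kit was stranded, and the methods ask that both read ends lie on one strand, but the strand setting of the counting is not given in the sources used here. Groups, cages and extraction pools came from the labels.

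Of 64 libraries, the 62 that reached 1000000 counted reads entered the analysis, and filterByExpr (minimum count 10) kept 18971 genes. edgeR 4.0.16 in R 4.3.3 (TMM, robust quasi-likelihood) was fitted to all 8 groups with extraction pool as covariate, and genes with a Benjamini-Hochberg adjusted p under 0.05 over all genes were called. Intervals are at 95%. limma 3.58.1 (voom quality weights, mouse as block) and DESeq2 1.42.0 were alternatives, with other scalings, filters, libraries, blocks and an offset for GC content and length. For the comparisons of psilocybin with saline, each library of the compared groups was also left out in turn. The study used a limma model of this kind but left out a further library, kept here, so its inputs differ. TMM assumes that most genes do not differ, and only reads counted on genes enter the totals.

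The 7 genes and all lists were chosen with earlier results of these data known. Named are the 7 genes, in each list the 2 genes with the smallest p per psilocybin comparison and the 2 with the largest fold each way between regions, and for each of the 7 the 3 most alike genes; some genes this rule picks are not reported here. The GC content and exon overlaps came from GENCODE vM21 and promoters from RefSeq GRCm38.p6. No pair of libraries within a group agreed within sampling noise (lowest chi-square per degree of freedom 3.85 over 210 pairs).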

Additional observations from a re-analysis of the deposited data

Results flagged for a closer look

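In 11 of 56 groups of libraries, formed by the 7 genes and the 8 groups, 1 library lay far from the others of its group. Chance flags about 1 in 20 independent groups, but the 7 genes of a group share their libraries, and 9 of the 11 values come from 2 libraries, so the count was not set against that share. In psilocybin replicate 7 of PFC at 3 h the low values were 42.14 CPM for Gabra2, 157.0 CPM for Gabra3, 75.21 CPM for Gabra4, 112.0 CPM for Gabrb1 and 101.8 CPM for Gabrb2. This library had a quality weight of 0.12 and the lowest summed neuronal markers of the PFC libraries, 4190 CPM.

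In psilocybin replicate 5 of the hypothalamus at 4 weeks the low values were 90.9 CPM for Gabra3, 107.2 CPM for Gabrb1, 3.02 CPM for Gabrb2 and 60.44 CPM for Gabrg1. Its quality weight was 0.0276, and its hypothalamic markers summed to 2550 CPM against 421 to 739 CPM in the other libraries of its group. Among saline mice, Gabra3 was high at 182.4 CPM in replicate 4 of the hypothalamus at 4 weeks, and Gabrg1 was high at 122.4 CPM in replicate 4 of the hypothalamus at 3 h. The part of library quality or dissection in these values was not tested.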

How the results depend on the processing

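The count of the 7 genes that passed differed from the reported one by over 1.5 times in 3 cases. It was 1 for psilocybin in PFC at 3 h with limma and voom weights, where 6.49% of all genes passed. For region at 4 weeks it was 3 with no TMM factor, an alternative chosen after seeing the data, and the share over all genes is not given here. For time in PFC it was 1 with the offset for GC content and length, where 11.2% of all genes passed. With no TMM factor the level per kilobase was 8.18 for Gabra2 and 45.1 for Gabra3 in the saline hypothalamus at 4 weeks and 43.4 for Gabra3 after psilocybin at 3 h. Of the log2 fold changes under an alternative, 671 kept sign and call, 9 passed only there, 12 lost the call, and 50 had the opposite sign, of comparisons in which the gene had no call. The cause of these shifts was not tested.

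With the offset for GC content and length the values of opposite sign were Gabra2 -0.0444, Gabrb1 -0.0606 and Gabrg1 -0.0117 for psilocybin in PFC at 3 h, Gabrg1 -0.145 for psilocybin in PFC at 4 weeks, Gabrb1 -0.0166 for psilocybin in the hypothalamus at 3 h, Gabra2 0.117 and Gabrg1 0.104 for psilocybin in the hypothalamus at 4 weeks, and Gabra5 -0.0314, Gabrb1 -0.0638, Gabrb2 -0.0366 and Gabrg1 -0.103 for time in PFC. With the cage as a block and that offset the values of opposite sign were Gabra2 -0.0414 and Gabrb1 -0.0601 for psilocybin in PFC at 3 h, Gabra3 -0.0026, Gabra4 -0.00396, Gabra5 -0.00716 and Gabrg1 -0.104 for psilocybin in PFC at 4 weeks, Gabrb1 -0.028 for psilocybin in the hypothalamus at 3 h, Gabra2 0.101 and Gabrg1 0.0909 for psilocybin in the hypothalamus at 4 weeks, and Gabra5 -0.0198, Gabrb1 -0.0628, Gabrb2 -0.0278 and Gabrg1 -0.0909 for time in PFC. With the cage as a block alone the values of opposite sign were Gabra5 -0.00296 for psilocybin in PFC at 4 weeks, and Gabrb1 -0.0135 for psilocybin in the hypothalamus at 3 h. With limma, voom weights and the mouse as a block the values of opposite sign were Gabra3 0.0714 for psilocybin in PFC at 3 h, Gabra3 -0.00258 for psilocybin in PFC at 4 weeks, Gabra2 0.0366 and Gabrg1 0.00448 for psilocybin in the hypothalamus at 4 weeks, and Gabra2 0.0472 and Gabra3 0.019 for time in PFC. With no TMM factor the values of opposite sign were Gabrb1 -0.00999 for psilocybin in PFC at 3 h, Gabrg1 0.00156 for psilocybin in the hypothalamus at 3 h, Gabra2 -0.0259 for region at 3 h, and Gabra5 0.0272 for time in the hypothalamus. With all 64 libraries the values of opposite sign were Gabra3 -0.0587, Gabra4 -0.0235 and Gabra5 -0.0213 for psilocybin in PFC at 4 weeks, and Gabrg1 0.00789 for psilocybin in the hypothalamus at 3 h. With no filter on low counts the values of opposite sign were Gabra5 -0.00605 for psilocybin in PFC at 4 weeks, and Gabrg1 0.00345 for psilocybin in the hypothalamus at 3 h. With at least 10 counts in every library the values of opposite sign were Gabrg1 0.00173 for psilocybin in the hypothalamus at 3 h, and Gabra5 0.0125 for time in the hypothalamus. With the size factors of DESeq2 in edgeR the values of opposite sign were Gabrg1 0.0004 for psilocybin in the hypothalamus at 3 h, and Gabra5 0.00305 for time in the hypothalamus. With DESeq2 the values of opposite sign were Gabrg1 0.000776 for psilocybin in the hypothalamus at 3 h, and Gabra5 0.00349 for time in the hypothalamus. With no extraction pool the values of opposite sign were Gabrg1 0.000236 for psilocybin in the hypothalamus at 3 h. With only the compared groups in the fit the values of opposite sign were Gabra5 0.0101 for time in the hypothalamus.

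In the comparisons of psilocybin with saline, 1 library of the compared groups was left out at a time. None of the 7 genes passed in any of these 62 cases, and 37 log2 fold changes had the opposite sign. The comparisons of regions and of harvest times were not run with each library left out in turn, so their calls were not checked this way. In the comparison of psilocybin in PFC at 3 h, Gabra3 ran from -0.0584 to 0.034, Gabrb1 ran from -0.0453 to 0.111, Gabrb2 ran from -0.128 to 0.0564, and with no change of sign Gabra5 ran from 0.0184 (without saline replicate 4) to 0.172 (without saline replicate 5) and Gabrg1 from 0.211 to 0.427 (without saline replicate 3). In the comparison of psilocybin in PFC at 4 weeks, Gabra3 ran from -0.00771 to 0.0366, Gabra4 ran from -0.0114 to 0.1, Gabra5 ran from -0.0262 to 0.0518, Gabrg1 ran from -0.0288 to 0.105. In the comparison of psilocybin in the hypothalamus at 3 h, Gabra5 ran from -0.0576 to 0.0121, Gabrb1 ran from -0.0187 to 0.0357, Gabrb2 ran from -0.105 to 0.00819, Gabrg1 ran from -0.047 to 0.0334. With no change of sign there, Gabra4 ran from 0.0122 (without saline replicate 5) to 0.164 (without saline replicate 6), Gabra3 from 0.015 to 0.0457 and Gabra2 from -0.114 to -0.0434.

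The replicate number is a cage number, and libraries of a region that share it are different mice, so it does not pair them by mouse. Their deviations from the group means had a mean correlation of 0.0806 in PFC and 0.0723 in the hypothalamus, and of -0.0415 and -0.0236 after removal of extraction pool. A PFC and a hypothalamic library were taken as the same mouse where treatment, time and this number were the same. The mean correlation of such pairs was 0.0854, and 0.0289 after removal of extraction pool. With the cage as a block, Gabra5 lost its regional call at 3 h (0.193, edgeR adjusted p = 0.085), as it did with the mouse as a block (0.153, adjusted p = 0.162).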
